A study of Mus musculus with 4 samples.

Results

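The guanylate-binding proteins (GBPs) and the immunity-related GTPases (IRGs) are GTP-hydrolysing enzymes that mouse cells make in response to interferon. Described here are 10 of them, 5 of each family, of 17762 genes listed in at least 1 of 4 RNA libraries from intestinal adenomas. They are the GBP genes Gbp2, Gbp3, Gbp6, Gbp7 and Gbp9 and the IRG genes Irgm1, Irgm2, Igtp, Ifi47 and Gm12250. The members were chosen by their expected counts and FPKM in the KO libraries against the WT libraries, so the differences between genotypes that follow describe the members and are not evidence for a change of the families.

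Every library came from C57BL/6 mice aged 110 days that carried ApcMin, a truncating allele of the Apc tumour suppressor under which mice develop intestinal adenomas. The 2 control libraries are labelled ApcMin Strap WT, and the 2 others are labelled ApcMin Strap KO, written ApcMin StrapIEKO in the series' design. STRAP is a WD-repeat scaffold protein that binds receptors and SMADs of the TGF-beta pathway and takes part in RNA processing. The promoter that drove deletion of Strap, and whether each library is 1 animal or a pool, are not stated by the labels or the design, so p-values measure only the spread between these libraries. No animals without ApcMin were part of the series as analysed here.

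Interferon-gamma acts through its receptor (Ifngr1 and Ifngr2) on gamma-activated sites (GAS) in promoters. Type I and type III interferons act through ISGF3, a transcription factor complex with IRF9 as its DNA-binding subunit, which binds the interferon-stimulated response element (ISRE), a sequence that IRF1 also recognises. GBPs are large GTPases that assemble on the vacuoles of intracellular parasites and bacteria, and on cytosolic bacteria, and help to release bacterial products to inflammasomes. IRGs fall into effectors that load onto such vacuoles, among them Ifi47 (Irgd) and Gm12250 (Irgb10), and regulators that sit on the cell's own membranes and hold the effectors inactive, Irgm1, Irgm2 and Igtp (Irgm3). In the intestine both families are known as interferon-induced defence genes of epithelial cells and of macrophages.

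The promoters are shown first, since they carry the recognition sequences of the 2 interferon arms and were not used to choose the genes. RefSeq promoter windows of the mouse build GRCm38.p6 (mm10), from 250 bases before to 50 bases after a gene's start, were at hand for 8 of the 10 members, all but Gbp6 and Gbp9. Both strands were searched for the ISRE letters (GAAA, any 2 bases and GAAA again) and the GAS letters (TTCNNNGAA), which do not overlap each other in the stretches printed. Each line gives 1 member's stretch 5′ to 3′ on the strand of its gene, with the matches and their reverse complements in capitals.
Gbp7: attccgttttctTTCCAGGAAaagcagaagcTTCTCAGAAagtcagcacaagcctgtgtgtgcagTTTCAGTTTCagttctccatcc
Gbp3: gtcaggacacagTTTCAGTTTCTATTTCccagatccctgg
Gbp2: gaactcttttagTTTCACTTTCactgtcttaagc
Irgm1: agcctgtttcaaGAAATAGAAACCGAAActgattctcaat
Gm12250: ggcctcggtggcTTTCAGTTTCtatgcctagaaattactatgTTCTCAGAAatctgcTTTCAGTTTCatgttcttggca
Igtp: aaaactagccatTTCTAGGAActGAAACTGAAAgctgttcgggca
Irgm2: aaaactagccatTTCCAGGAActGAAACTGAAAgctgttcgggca
The stretches lie at chr3:142530218-142530304 (Gbp7), chr3:142559987-142560026 (Gbp3) and chr3:142620592-142620625 (Gbp2), all on the plus strand. Those of the IRG genes lie at chr11:48871423-48871462 on the minus strand (Irgm1) and, on the plus strand, at chr11:58183740-58183818 (Gm12250), chr11:58199499-58199543 (Igtp) and chr11:58214890-58214934 (Irgm2). All but that of Gbp3 end before the annotated gene, the nearest base of the Irgm1 stretch being 3 bases before the start. Gbp3 has 2 windows for different transcript starts, and its stretch ends 18 bases before the start of its own window but runs past the most upstream annotated base of the gene (142560016).

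An ISRE match was present in 7 of the 8 members with a window. The share was 3.44% of all 32851 promoter windows and 3.71% of the 10205 tested genes with a window. A GAS match was present in 4 of 8, against 8.30% of all windows and 8.41% of those tested genes. Both motifs stood in Gbp7, Gm12250, Igtp and Irgm2, a combination found in 0.454% of all windows and 0.51% of those tested genes. Gbp2, Gbp3 and Irgm1 held an ISRE match and no GAS match, and Ifi47 held neither in this window. Of the further family symbols compared below, 12 had a window, of which 6 held an ISRE match, 4 a GAS match and 4 both. Those with both were Gbp5, Gm12185, Tgtp1 and Tgtp2, so the matches are not particular to the members. Igtp and Irgm2, which are neighbours on chromosome 11, were identical over 44 of the 45 bases printed, so their matches are not independent of each other. Their GAS matches differed by T4C, counted from 1 at the 5′ end of the match with the Igtp base first. In both genes 2 bases separated the GAS match from the ISRE match. A match is a stretch of letters and not a shown binding site, and no binding was measured here.

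Total expected counts per library ran from 14084814 to 15640931, and 12769 genes passed the filter on low counts, all 10 members among them. Levels are given as CPM, counts scaled to the effective size of their library. Strap itself had 157 and 112 CPM in the WT libraries and 20.5 and 24.8 in the KO libraries, a log2 fold change of -2.57 (SE 0.26, edgeR adjusted p = 0.0942). Markers of epithelial cells summed to 13993 to 19091 CPM per library, with all 12 present in each and Krt8 the most abundant. The labels say colon adenoma, and the protocol speaks of intestinal adenomas. The small-intestinal genes Apoa1 (2635 to 7927 CPM) and Sis (1969 to 4707 CPM) were abundant in every library, while the colonic gene Car1 did not pass 4.22 CPM. Other small-intestinal genes differed between libraries. Fabp6 measured 422 and 2453 CPM in the WT libraries, against 894 and 118 in the KO libraries. Gata4 measured 134 and 27.3 CPM in the WT libraries, against 156 and 165 in the KO libraries. Alpi was more even, at 394 to 610 CPM. Whether the libraries came from different parts of the intestine was not tested. Markers of T and natural killer cells summed to 73.8 and 55.1 CPM in WT and to 46.4 and 394 CPM in KO, so that KO replicate 2 stood apart. Macrophage markers summed to 74.0 and 85.0 CPM in WT and to 132 and 127 CPM in KO, with the defining gene Adgre1 at 0.192 CPM or less. B and plasma cell markers (led by Jchain), neutrophil markers (led by Cxcr2) and fibroblast markers (led by Pdgfrb) summed to at most 15.5 CPM, and endothelial markers (led by Cdh5) to 45.4 CPM in WT replicate 1 and at most 3.05 CPM elsewhere. In such bulk samples fewer cells of a type and less RNA per cell cannot be told apart.

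All 10 members had a higher mean in KO than in WT, with log2 fold changes from 0.98 (Gbp9) to 4.17 (Igtp) and a median of 1.93. The median over all tested genes was 0.0037. In 7 members each KO library exceeded each WT library, an order that 25.5% of all tested genes showed. These were all 5 IRG genes and, of the GBP genes, Gbp3 and Gbp7. With edgeR's quasi-likelihood test and Benjamini-Hochberg adjustment 0 of the 10 passed an adjusted p of 0.05, where 0.00783% of all genes (1 gene) passed in this direction and 7.08% did so at an unadjusted p under 0.05. With DESeq2 7 of the 10 passed, where 1.82% of all genes did. Since the genotype contrast chose the members, nothing is read from these counts.

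**Figure D1:**
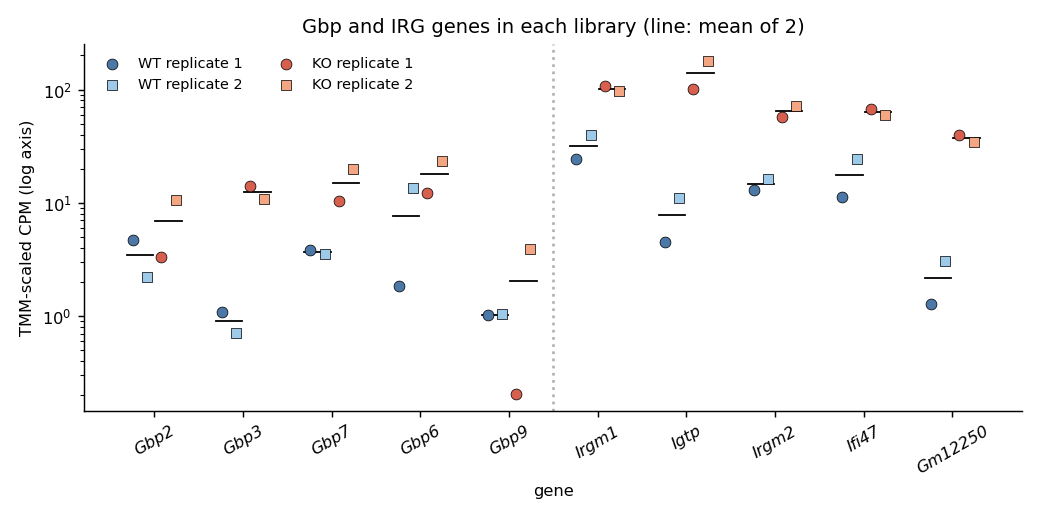
Level of each of the 10 genes in the 4 libraries, in TMM-scaled CPM on a log axis, with 1 point per library and a bar at each group's mean. In all 5 IRG genes and in Gbp3 and Gbp7 the KO points sit above the WT points, while Gbp2, Gbp6 and Gbp9 overlap, with Gbp9 lowest of all in KO replicate 1 (0.205 CPM).

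The regulator Igtp, which is known from work on Toxoplasma resistance, had the widest difference of the members. Its level was 4.56 and 11.1 CPM in the WT libraries, against 102 and 179.7 in the KO libraries. The means were 7.83 ± 4.62 and 141 ± 54.9 (SD, n = 2 each), a log2 fold change of 4.17 (SE 0.52). The lower KO library was thus several times above the higher WT library, and KO replicate 2 was the higher of the KO libraries. Only 12 of the 12769 tested genes, Igtp included, had a fold change this high.

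Irgm2, the regulator next to Igtp on the chromosome, had the smallest standard error of the members. It measured 13.0 and 16.3 CPM in the WT libraries, against 56.8 and 72.2 in the KO libraries. Its means were 14.7 ± 2.31 and 64.5 ± 10.9 CPM (SD, n = 2 each), with a log2 fold change of 2.14 (SE 0.24). Each KO library was more than 3 times each WT library.

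Irgm1, the regulator known for its part in autophagy and in survival of mycobacterial infection, was already the most abundant member in WT on a scale corrected for length. Its count level was 24.3 and 39.7 CPM in the WT libraries, against 107 and 96.2 in the KO libraries. The means of 32.0 ± 10.9 and 102 ± 7.79 CPM (SD, n = 2 each) gave a log2 fold change of 1.67 (SE 0.28). The WT libraries differed from each other more than the KO libraries did, and without WT replicate 2 the fold change was 2.06.

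The effector Gm12250, known as Irgb10 for disrupting bacterial membranes, was scarce in WT, with 1.28 and 3.05 CPM, and reached 39.4 and 34.6 CPM in KO. The means were 2.17 ± 1.25 and 37.0 ± 3.39 CPM (SD, n = 2 each), a ratio of 17.1 and a log2 fold change of 4.09 (SE 0.46). The KO libraries lay close together and far from either WT library. Ifi47, an effector that also loads onto vacuoles, measured 11.3 and 24.2 CPM in the WT libraries, against 66.7 and 59.6 in the KO libraries. Its means were 17.7 ± 9.13 and 63.1 ± 5.02 CPM (SD, n = 2 each), with a log2 fold change of 1.83 (SE 0.38). WT replicate 2 was above WT replicate 1 for all 5 IRG genes, by 1.25-fold in Irgm2 up to 2.44-fold in Igtp. Leaving it out raised the fold changes of Ifi47 to 2.48, of Gm12250 to 4.84 and of Igtp to 4.95.

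The GBP members were less uniform. Gbp3 measured 1.09 and 0.714 CPM in the WT libraries, against 14.2 and 10.9 in the KO libraries. The means were 0.902 ± 0.267 and 12.6 ± 2.34 CPM (SD, n = 2 each), a ratio of 13.9 and a log2 fold change of 3.79 (SE 0.47). Along with Igtp and Gm12250 it formed the group of 3 members with a more than 10-fold ratio. Gbp7, described to act with autophagy and the oxidative defence of phagocytes, measured 3.85 and 3.57 CPM in the WT libraries, against 10.5 and 19.7 in the KO libraries. Its log2 fold change was 2.02 (SE 0.43), from means of 3.71 ± 0.199 and 15.1 ± 6.54 CPM (SD, n = 2 each). Both KO libraries were above both WT libraries, and the KO libraries differed from each other 1.88-fold. Without KO replicate 2 the fold change of Gbp7 was 1.47.

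For the other GBP members the genotypes overlapped. Gbp2, which coats the Toxoplasma vacuole, measured 4.68 and 2.21 CPM in the WT libraries, against 3.35 and 10.6 in the KO libraries. The means were 3.44 ± 1.75 and 6.95 ± 5.10 CPM (SD, n = 2 each), and the log2 fold change of 1.01 (SE 0.70) rested on KO replicate 2, being -0.062 without it. KO replicate 1 lay between the WT libraries. Gbp6 measured 1.86 and 13.6 CPM in the WT libraries, against 12.3 and 23.4 in the KO libraries, with means of 7.71 ± 8.27 and 17.8 ± 7.83 (SD, n = 2 each). Its log2 fold change of 1.21 (SE 0.86) became 3.26 without WT replicate 2, 0.65 without KO replicate 2 and 0.38 without WT replicate 1. The spread within WT, 7.29-fold, was wider than the 2.31-fold ratio of the genotype means. Gbp9 was the scarcest member, with 16 expected counts in each WT library, 3 in KO replicate 1 and 57.08 in KO replicate 2. As CPM this gave 1.03 and 1.04 for the WT libraries, against 0.205 and 3.88 for the KO libraries. The means were 1.03 ± 0.0082 and 2.04 ± 2.60 (SD, n = 2 each), with a fitted log2 fold change of 0.98 (SE 1.201) that was -2.31 without KO replicate 2. KO replicate 1 was thus below both WT libraries and KO replicate 2 above them.

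Comparing members with one another needs a scale corrected for transcript length, for which the deposited FPKM (fragments scaled for the length of the transcript and the depth of the library) served. In FPKM Irgm1 was the highest member in both WT libraries, at 11.32 and 18.53, followed by Ifi47 at 6.70 and 14.53. In both KO libraries Igtp was the highest, at 47.53 and 93.61, followed by Irgm1 at 46.19 and 46.34 and Ifi47 at 37.00 and 36.92. Igtp and Irgm1 were thus far apart in KO replicate 2 and nearly level in KO replicate 1. The order below them in KO was Irgm2, at 15.23 and 21.65 FPKM, and Gm12250, at 13.92 and 13.66 FPKM. The 5 IRG genes summed to 24.58 and 44.56 FPKM in WT and to 159.87 and 212.18 FPKM in KO, while the 5 GBP genes summed to 3.82 and 5.35 FPKM in WT and to 10.99 and 19.56 FPKM in KO. Igtp's share of the FPKM of all 10 members was 8.10% and 11.2% in WT and 27.8% and 40.4% in KO. Irgm1's share was 39.9% and 37.1% in WT and 27.0% and 20.0% in KO.

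Between the KO libraries the members fell on both sides. Among the GBP genes 4 of 5 were higher in KO replicate 2 than in replicate 1, namely Gbp7 by 1.88-fold, Gbp6 by 1.90-fold, Gbp2 by 3.16-fold and Gbp9 by 19.0-fold. The Gbp9 ratio rests on 3 counts in replicate 1, and its exact 95% interval from counting error alone ran from 6.17 to 94.6. Gbp3 was lower in replicate 2, at 0.767 of its level in replicate 1. Among the IRG genes Gm12250, Ifi47 and Irgm1 stood at 0.878 to 0.897 of their level in replicate 1, Irgm2 at 1.27 and Igtp at 1.76. All 15 listed markers of T and natural killer cells were also higher in KO replicate 2, with Gzma at 15.03 CPM in replicate 1 and 152 CPM in replicate 2 and Cd3e at 0.956 and 10.02 CPM. In KO replicate 1 these markers summed to less than in either WT library. Their part in the members' levels was not tested.

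**Figure D2:**
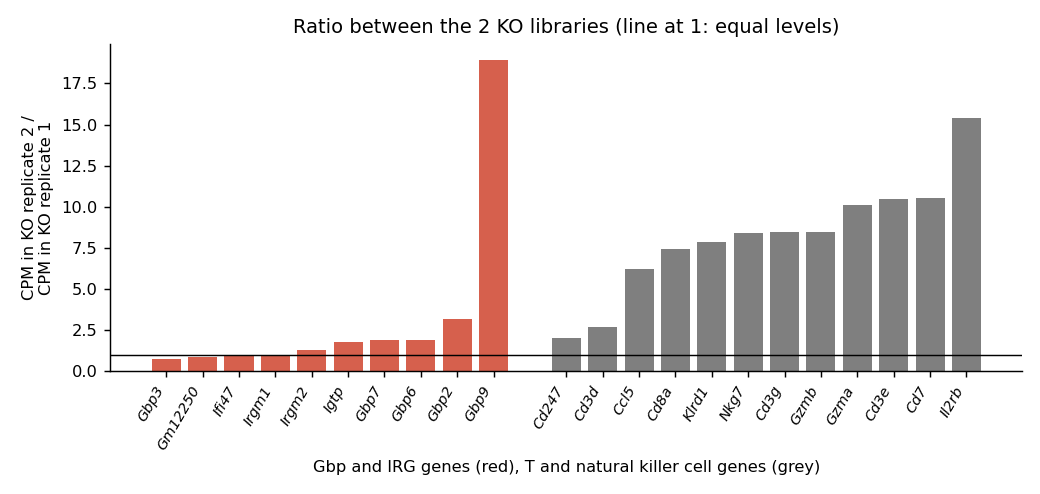
Ratio of the level in KO replicate 2 to that in KO replicate 1, as bars from 0 on a linear axis with a line at 1, for the 10 genes and for the 12 markers of T and natural killer cells with more than 3 counts in KO replicate 1. Gm12250, Ifi47, Irgm1 and Gbp3 lie below 1, whereas Gbp2 (3.16), Gbp9 (19.0) and all markers drawn lie above 1.

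Near-identical family members share reads, which RSEM divides among them. The expected counts of Igtp and Irgm2 summed to whole numbers in all 4 libraries (274, 422, 2325 and 3697), to within 0.005, while in 3 libraries each was fractional on its own. Gbp6 and Gbp9 together made 400 counts in KO replicate 2, as 342.92 and 57.08. How those shared reads were split between the genes of each pair is therefore an estimate, while the sums are not affected. The sum of Igtp and Irgm2 was higher in both KO libraries than in both WT libraries, as each gene was. Ifi47 also had a fractional count in KO replicate 1, at 975.86, and the gene that shared its reads was not looked for. The sources used here do not give the strandedness of the reads, so reads from overlapping genes on opposite strands cannot be told apart.

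The members sit in clusters. Gbp7 (chr3:142530336-142550151), Gbp3 (chr3:142560016-142573213) and Gbp2 (chr3:142620663-142638008) lie on the plus strand of chromosome 3, and Gbp9 (chr5:105076464-105110357) and Gbp6 (chr5:105270702-105295871) on the minus strand of chromosome 5, in mm10. Gm12250 (chr11:58183843-58190198), Igtp (chr11:58199556-58207592) and Irgm2 (chr11:58214977-58222783) follow one another among the family genes on the plus strand of chromosome 11. Irgm1 (chr11:48865245-48871420, minus strand) and Ifi47 (chr11:49076587-49096987, plus strand) lie in a separate cluster of that chromosome. Within a cluster the values were not alike: Gbp3 and Gbp2, between which Gbp2b lies, had log2 fold changes of 3.79 and 1.01.

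**Figure D3:**
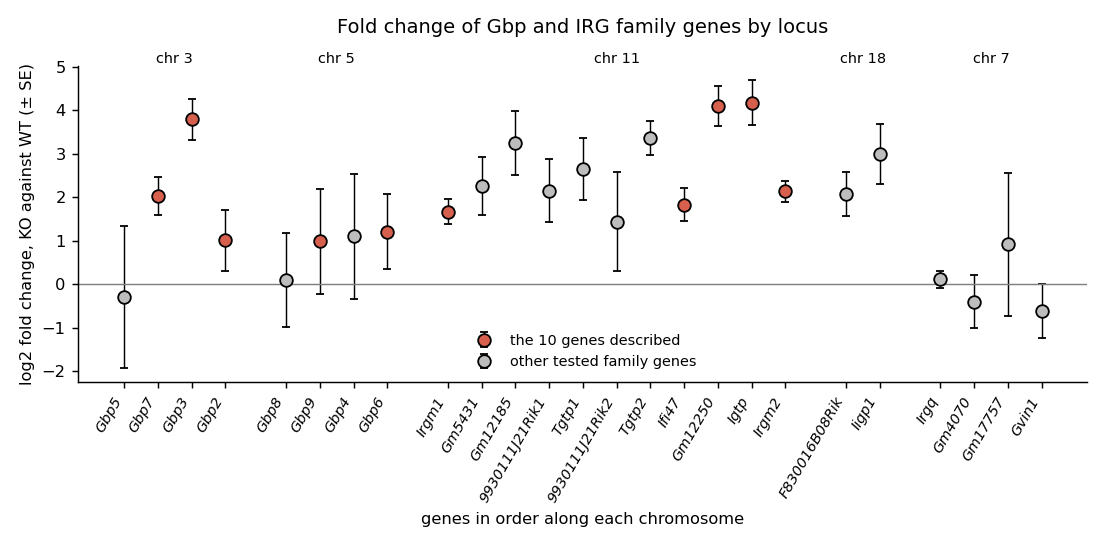
Log2 fold change of KO against WT with its standard error from the edgeR fit, for 25 tested genes of the families in their order along each chromosome, with the 3 tested atlastin genes not drawn. The chromosome 11 genes all lie above 0, the GBP genes of chromosomes 3 and 5 spread from -0.29 (Gbp5) to 3.79 (Gbp3), and Irgq, Gm4070 and Gvin1 of chromosome 7 lie between -0.62 and 0.11, with Gm17757 at 0.92.

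A list of 27 further family symbols, which includes 3 tested atlastin genes of the same superfamily, was compared in the same fit. Of these 25 were listed in a library and 18 were tested, of which 14 had a higher mean in KO. In 8 both KO libraries were above both WT libraries, against 25.5% of all tested genes. The 8 were Tgtp1, Tgtp2, Gm12185, Gm5431, 9930111J21Rik1, Iigp1, F830016B08Rik and the atlastin gene Atl1, with no GBP gene among them. Atl1 had 12 expected counts in both WT replicate 1 and KO replicate 1, so its order rests on the scaling (0.770 and 0.820 CPM). The median log2 fold change of the 18 was 1.01, against 0.0037 over all tested genes, and was 0.11 without KO replicate 2. None passed with edgeR in either direction, against 0.00783% of all genes higher and 0.0% lower, and 6 passed higher with DESeq2, against 1.82% of all genes. At an unadjusted p under 0.05 the edgeR fit has 8.69% of all genes lower and 7.08% higher.

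Several further IRG genes lie in the chromosome 11 clusters. Tgtp2, an effector (Irgb6), measured 1.73 and 1.88 CPM in the WT libraries, against 14.8 and 22.5 in the KO libraries, a log2 fold change of 3.36 (SE 0.40, edgeR adjusted p = 0.1). Its near copy Tgtp1 measured 2.50 and 1.17 CPM in the WT libraries, against 5.67 and 17.4 in the KO libraries, and the reads of the pair were divided by RSEM in all 4 libraries. Gm12185 had 0.192 and 0.324 CPM in the WT libraries, against 2.12 and 2.93 in the KO libraries. The KO libraries also lay above the WT libraries in Gm5431 (log2 fold change 2.25) and 9930111J21Rik1 (2.15), whereas 9930111J21Rik2 (1.43) overlapped. On chromosome 18 Iigp1, the effector Irga6, measured 0.898 and 0.649 CPM in the WT libraries, against 3.55 and 8.86 in the KO libraries (log2 fold change 2.99, SE 0.68, edgeR adjusted p = 0.199). F830016B08Rik of the same chromosome had a log2 fold change of 2.07.

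The other GBP genes were scarce. Gbp4 measured 1.35 and 0.584 CPM in the WT libraries, against 0.0683 and 4.09 in the KO libraries, and Gbp8 0.834 and 3.31 CPM in the WT libraries, against 0.546 and 3.88 in the KO libraries. Both were lowest in KO replicate 1 and highest in KO replicate 2, the order that Gbp9 also had. Gbp5 had a log2 fold change of -0.29 (SE 1.63) and was not listed in KO replicate 1. Gbp2b, Gbp10 and Gbp11 were below the filter on low counts, as were Gm4841, Gm4951 and Irgc1. Irgq, a divergent relative of the IRGs, was even across libraries at 41.2 and 35.1 CPM in the WT libraries, against 41.1 and 41.3 in the KO libraries. The very large GTPase Gvin1 measured 305 and 717 CPM in the WT libraries, against 161 and 504 in the KO libraries, with the related Gm4070 at a log2 fold change of -0.40 and Gm17757 at 0.92 (SE 1.64). Expected counts of Gvin1, Gm4070 and Gm17757 were fractional in every library that listed them, so the division of their shared reads is an estimate. The atlastins, GTPases of the same superfamily that shape the endoplasmic reticulum, had log2 fold changes of 0.66 (Atl1), 0.036 (Atl2) and -0.35 (Atl3).

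Next to the members stood the interferon-gamma arm, from the ligand to antigen processing. Ifng, the ligand, had 1 to 3 expected counts in each library and was not tested. The receptor chains were not higher in KO, Ifngr1 measuring 197 and 191 CPM in the WT libraries, against 134 and 137 in the KO libraries (log2 fold change -0.52, edgeR adjusted p = 0.296) and Ifngr2 268 and 246 CPM in the WT libraries, against 252 and 219 in the KO libraries. Irf1, an interferon-induced activator of GBP genes, had 84.8 and 175 CPM in the WT libraries, against 196 and 204 in the KO libraries (log2 fold change 0.62, edgeR adjusted p = 0.448). Both KO libraries were above both WT libraries for Irf1, with a small margin over WT replicate 2. Genes of peptide supply to MHC class I had the smallest p of the list, with log2 fold changes of 2.80 for the peptide transporter gene Tap1, 2.17 for Tap2, 2.65 for the immunoproteasome gene Psmb9 and 2.87 for Psmb8. Of 22 tested genes 17 had a higher mean in KO, 10 had both KO libraries on top (25.5% of all tested genes) and 2 had both at the bottom (24.6% of all tested genes). The median was 0.70, which was 0.16 to 1.39 with a library left out, and 0 passed with edgeR in either direction while 6 passed higher with DESeq2, against 1.82% of all genes.

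The type I interferon and ISGF3 arm had a higher median than the members. Of 21 tested genes 18 had a higher mean in KO, the same number had both KO libraries above both WT libraries (25.5% of all tested genes), and the median log2 fold change was 2.83. Ifi44, an antiviral interferon-induced gene, was the only gene of the whole table to pass with edgeR in this direction, at 1.60 and 0.908 CPM in the WT libraries, against 80.7 and 76.9 in the KO libraries (log2 fold change 5.96, SE 0.33, adjusted p = 0.0287). This call was lost with library size alone as the scale (adjusted p = 0.0532), with limma on FPKM (0.0588 and 0.087) and without WT replicate 1 (0.0678), KO replicate 1 (0.568) or KO replicate 2 (0.303). DESeq2 called 15 of the 21 higher, against 1.82% of all genes. Usp18, which shuts off the type I receptor, measured 0.642 and 1.30 CPM in the WT libraries, against 38.2 and 29.2 in the KO libraries, and Isg15, a ubiquitin-like modifier, 1.09 and 2.98 CPM in the WT libraries, against 72.8 and 28.6 in the KO libraries. Oasl2 had a log2 fold change of 3.52. Irf9 measured 23.5 and 32.7 CPM in the WT libraries, against 61.5 and 61.3 in the KO libraries (log2 fold change 1.13, edgeR adjusted p = 0.18). Ifnb1, a ligand of this arm, was not listed in any library. All genes of both arms come from the contrast that chose the members, so their counts are a description too.

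**Figure D4:**
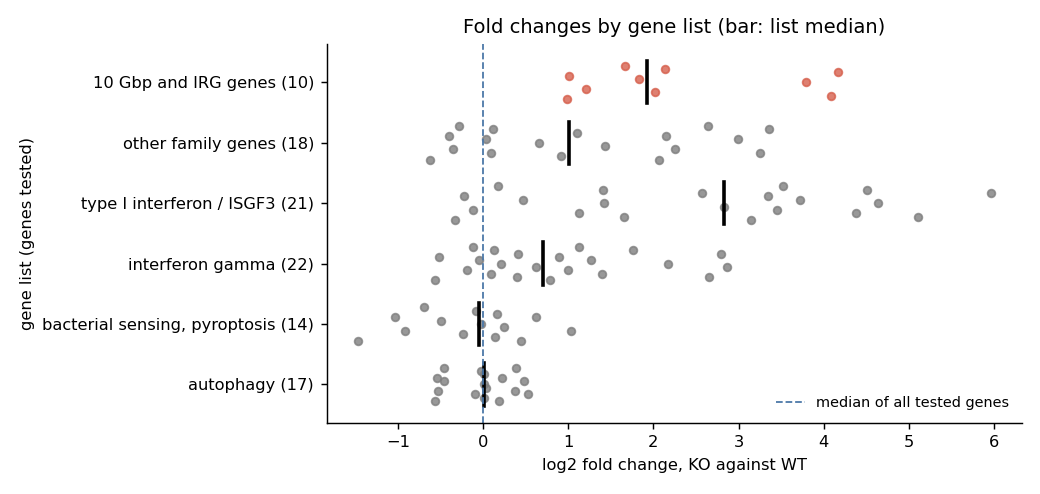
Log2 fold change of KO against WT for every tested gene of each list, with a bar at the list's median and a dashed line at the median of all tested genes. The type I interferon list has the highest median (2.83), followed by the 10 genes (1.93), the further family genes (1.01) and the interferon-gamma list (0.70), while the bacterial sensing (-0.052) and autophagy (0.013) lists centre near 0.

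Lists of processes with which GBPs and IRGs work had medians near that of all tested genes. Of 14 tested genes of cytosolic bacterial sensing and pyroptosis 6 had a higher mean in KO, and the median was -0.052, or -0.40 without KO replicate 2. In 5 genes of the list both KO libraries were below both WT libraries (24.6% of all tested genes), and in 1 both were above (25.5%). The NAIP genes, receptors of bacterial flagellin and secretion needles, had the smallest p of the list and were among those 5. Naip1 measured 224 and 215 CPM in the WT libraries, against 93.7 and 139 in the KO libraries (log2 fold change -0.92, edgeR adjusted p = 0.235), and the log2 fold changes of Naip2, Naip5 and Naip6 were -0.69, -1.03 and -1.47. These are near copies of one another, so the division of their reads is an estimate. edgeR called 0 genes of the list in either direction and DESeq2 2 lower, against 3.32% of all genes lower with DESeq2. Of 17 tested genes of autophagy conjugation and its adaptors, which the IRG and GBP proteins need for correct placement, 10 had a higher mean in KO, with a median of 0.013. The 4 with the smallest p were Ulk1 (-0.57), Atg12 (-0.53), Nbr1 (-0.55) and Atg3 (0.53), none of which passed with either tool (edgeR adjusted p = 0.293 to 0.315).

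Averaged after centring each gene, the members' pattern in log2 CPM was -1.39 and -0.83 in WT and 0.75 and 1.48 in KO. By root mean square distance over the 4 libraries Irgm2 (0.17) and Gbp7 (0.29) were the members nearest to this average, while Igtp (1.03), Gm12250 (1.03) and Gbp9 (1.51) were the farthest. Among 11242 other genes with a mean FPKM of at least 1, the 8 nearest were Slc5a4a (0.049), Tap2 (0.16), Oas1c (0.18), Nudt5 (0.20), Plac9b (0.21), Ifit2 (0.24), Cntf (0.24) and Sp110 (0.27). Slc5a4a, of the sodium and glucose transporter family, measured 6.16 and 8.63 CPM in the WT libraries, against 25.6 and 45.8 in the KO libraries. Tap2, Oas1c, Ifit2 and Sp110 are known as interferon-induced genes. With 4 libraries in 2 genotypes many genes can share such an order, and the distances are given as a description.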

How the data were processed

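Polyadenylated RNA of 2 WT and 2 KO libraries was sequenced as paired-end reads. Tools named in the submitters' processing notes, with no role or order, are RSEM 1.2.12 and Bowtie2 2.2.5, and the build is mm10. Per the file headers the deposited tables give RSEM expected counts and FPKM per gene. Only genes at or above an FPKM of 0.01 appear, and a gene not listed was set to 0 in the fit. Tables were joined on Entrez identifiers (17721 of 17762 found in RefSeq), and 1 row without a gene per library (at most 0.000233% of counts) was left out.

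Expected counts were rounded and fitted with edgeR 4.0.16 (R 4.3.3): TMM, filterByExpr, quasi-likelihood test, genotype as the only term, Benjamini-Hochberg adjustment over 12769 genes. The biological coefficient of variation was 32.5%. CPM are TMM-scaled. The test was checked on simulated data. The members and lists were chosen with earlier results of these data known. Named were all members, every listed family gene, 4 genes of smallest p per list, the pathway genes Irf1, Irf9, Ifng, Ifngr1, Ifngr2, Ifnb1 and Strap, the most abundant gene of each cell type list, and the 8 genes of nearest pattern, except genes not reported here. Other genes named (Cd3e, Adgre1, Car1, Sis, Fabp6, Gata4, Alpi) were chosen after their values were seen. Alternatives were DESeq2 1.42.0, limma 3.58.1 on FPKM, other scalings and filters, a replicate block and leaving out each library. Protein sequences were not used here.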

Additional observations from a re-analysis of the deposited data

How the results depend on the processing

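Under the other scalings, filters and tests the fold changes of all 10 members were above 0, except that Gbp9 did not pass the filter of at least 50 counts in at least 2 libraries, and the count of 7 members with the KO libraries on top was also 7 with DESeq2 size factors, library size alone and FPKM (added after seeing the data). The 2 reversals were Gbp2 (-0.062) and Gbp9 (-2.31) without KO replicate 2, with 1.64 and 1.90 their highest values with another library left out. Counts of calls depended on the test. Genes higher in KO numbered 1, against 0 with library size alone, 19 with no filter, 233 with DESeq2 and 0 with limma at either pseudocount (1 and 0.1). Genes lower in KO numbered 0, against 8 with no filter and 424 with DESeq2. Members called numbered 0, against 3 with no filter and 7 with DESeq2. For the further family genes, 0 calls became 1 with no filter and 6 with DESeq2, and the median of 1.01 was 0.35 with limma on log2(FPKM + 1). Interferon-gamma arm calls went from 0 to 6 with DESeq2, and bacterial sensing calls of lower genes from 0 to 2. Type I arm calls, 1 in the edgeR fit, were 0 with library size alone, 2 with no filter, 15 with DESeq2 and 0 with limma at either pseudocount, and the median of 2.83 was 1.60 with limma on log2(FPKM + 1). The cause of these shifts was not tested. The median of all genes stayed between -0.046 and 0.021.

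Libraries of the same replicate number share only that number (correlation of their deviations -0.123). With the replicate block 46 genes were called higher and 70 lower, with 4 members, 1 further family gene, 5 of the interferon-gamma arm and 8 of the type I arm. With the crossed replicate block, added after seeing the data, these were 65, 99, 6, 1, 3 and 12. The log2 fold change of Gbp9 was 0.077 with the replicate block.

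With each library left out in turn, 0 to 41 genes were called higher and 0 to 133 lower, the highest counts being without WT replicate 2. Members called were 0 to 4 and their median 1.80 to 2.39. For the further family genes the median was 0.11 to 1.68 with 0 to 1 calls, for the interferon-gamma arm 0.16 to 1.39 with 0 to 4 calls, for the type I arm 2.31 to 3.93 with 0 to 11 calls, and for bacterial sensing -0.40 to 0.064. A lone library was then assumed to vary like the other genotype. Depth limits Gbp9 most, with 3 counts in KO replicate 1.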

Other observations

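The arrangement of a GAS match followed by 2 bases and an ISRE match, seen in Igtp and Irgm2, was searched for in all promoter windows after those of the members had been read. The letters TTCNNNGAA, any 2 bases, GAAA, any 2 bases and GAAA were found in 5 of 32851 windows, or 0.0152%, belonging to 5 of 27025 genes. All 5 are IRG genes of chromosome 11, and the 3 that are not members are shown here with the matches in capitals.
Tgtp1: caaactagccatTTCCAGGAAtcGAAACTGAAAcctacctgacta
Tgtp2: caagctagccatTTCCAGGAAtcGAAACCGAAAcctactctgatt
Gm12185: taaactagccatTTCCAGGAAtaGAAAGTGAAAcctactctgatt
They lie on the minus strand at chr11:48992302-48992346 (Tgtp1), chr11:49064261-49064305 (Tgtp2) and chr11:48927236-48927280 (Gm12185). In Igtp, Irgm2, Tgtp1, Tgtp2 and Gm12185 each KO library exceeded each WT library, an order that 25.5% of all tested genes showed. Their log2 fold changes were 4.17, 2.14, 2.64, 3.36 and 3.25. Of the other tested IRG genes of chromosome 11, Irgm1, Ifi47, Gm12250, Gm5431 and 9930111J21Rik1 also showed this order, and 9930111J21Rik2 overlapped. Igtp and Irgm2 were chosen by this contrast, and a link between the arrangement and the levels was not tested. In Gbp7 the 2 GAS matches stood 44 and 25 bases from the ISRE match, and in Gm12250 the GAS match stood 20 and 6 bases from its 2 ISRE matches.

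Gm18853, of the further family genes, was listed in WT replicate 2 alone, at 19.5 CPM, and Gm17757 was not listed in that library. Both are annotated as transcribed pseudogenes, Gm18853 within the span of Gvin1 and Gm17757 within that of Gm4070. The expected count of Gm18853 was fractional (300.82), as were those of Gm17757, so these levels depend on how shared reads were divided. Which genes shared the reads was not looked for.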
